A study of Mus musculus with 18 samples.

Results

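The comparison described here is BRAFV600E against wild type in CD103+ cells sorted from mouse lung. It takes the 2 arrays titled as BRAF and the 2 titled as WT for lung CD103 cells, 4 of the 18 arrays of the series, and it covers every gene whose probe set carries a single symbol. The study asked how the RAF, MEK and ERK kinase pathway acts on dendritic cell migration in Langerhans cell histiocytosis, a disease in which dendritic cells carrying BRAFV600E accumulate in lesions. The 18 Affymetrix gene arrays came from 4 populations: bone marrow derived dendritic cells (BMDC, 3 arrays a genotype), and CD11b+ cells of liver, CD11b+ cells of lung and CD103+ cells of lung (2 arrays a genotype each).

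Mice of both groups carried a floxed, conditionally active BRAFV600E allele. The BRAF group was also positive for CD11c-Cre, which switches the allele on in cells that use the promoter of the integrin CD11c, and the WT group were Cre-negative littermates. CD11c is expressed by dendritic cells and also by some macrophages, alveolar macrophages among them, so the allele is not restricted to CD103+ cells. The organ donors were 14 weeks old and had not been manipulated, and the BMDC donors of both genotypes were 5 weeks old. Cells were freed by dissection and sorted on a FACS Aria, and no gate beyond CD103+ is given in the labels. The replicates are numbered 1 and 2 for BRAF and 1 and 3 for WT. Whether these were different animals is not in the labels. Sex-linked transcripts, given below, differed between the 2 arrays of each genotype, so those arrays did not repeat 1 RNA sample. How many animals an array holds is not known. The p-values measure the spread between samples only, and part of that spread may be technical. A sorted population is a bulk sample: a lower value can reflect fewer cells of a type or less RNA per cell, and the 2 cannot be told apart.

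CD103+ dendritic cells of the lung belong to the conventional type 1 lineage (cDC1), which takes up antigen in the airway wall, presents it on MHC class I to CD8 T cells and carries it to lymph nodes. Migration to the node depends on the chemokine receptor CCR7, which follows CCL19 and CCL21. BRAF is the kinase that passes the signal from RAS to MEK and ERK, and the V600E form signals without RAS input. ERK activity is read out by induced genes such as the EGR factors and by the DUSP, Sprouty and Spred feedback inhibitors.

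The arrays carried the cell type of their label. Values are log2 of the deposited array intensity, and a difference is BRAF minus WT on that scale. Itgae, which encodes CD103, read 10.60 and 11.84 on BRAF replicates 1 and 2 and 11.42 and 12.18 on WT replicates 1 and 3. Against WT lung CD11b cells it was higher by 5.07 ± 0.36 (standard error; limma, adjusted p = 9.32e-07). The chemokine receptor Xcr1 and the dead-cell receptor Clec9a, which define cDC1, were likewise higher in the WT CD103 sort than in the WT CD11b sort, by 5.32 ± 0.37 and 4.10 ± 0.54. All 20 cDC1 markers tested lay above each array's filter floor (its 30th percentile) on all 4 arrays. So did 13697 to 13996 of the 15365 genes tested on each array, so that count says little of cell type. The mean of the cDC1 markers was 10.42 and 10.71 on the BRAF arrays and 10.86 and 11.03 on the WT arrays, against 8.05 to 8.33 on the 4 lung CD11b arrays. Braf itself read 8.83 and 8.65 in BRAF and 9.22 and 8.50 in WT, a difference of −0.12 ± 0.30 that was not called. The array does not tell the V600E form from the normal one. Itgax, which encodes CD11c and whose promoter drives the Cre, read 11.61 and 11.89 in BRAF and 11.43 and 11.81 in WT.

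Markers of other cell types differed between replicates of 1 genotype as well as between genotypes. The purity of each sort was not tested. On WT replicate 1 the NK cell genes Nkg7 and Gzmb read 11.34 and 9.33, against 5.69 and 5.17 on WT replicate 3. The T cell receptor gene Cd3g read 8.68 and 4.90 on the same arrays. On BRAF replicate 1 the club cell genes Cyp2f2 and Scgb3a1 read 10.66 and 10.14, where the other 3 arrays read 5.91 to 6.12 and 6.67 to 6.82. Not all epithelial genes set that array apart. Sftpc read 10.53 and 9.91 in BRAF and 9.67 and 7.52 in WT, and Epcam was lowest on BRAF replicate 1. Of 18 lung epithelium markers tested, 10 were higher in BRAF and 8 lower, with a median difference of 0.11. Their mean was 8.20 on BRAF replicate 1 and 7.08 to 7.53 on the other arrays. The liver gene Alb read 10.98 on BRAF replicate 1 and 5.94 to 7.80 on the others. The mean of 25 macrophage identity genes was 9.31 and 8.28 in BRAF and 7.93 and 6.87 in WT, so that the array with the highest level was BRAF replicate 1 and the one with the lowest was WT replicate 3. Over all 24922 probe sets, BRAF replicate 1 correlated at least as closely with BRAF lung CD11b replicate 1 (r = 0.97) as with BRAF CD103 replicate 2 (r = 0.962). Across probe sets such a value describes the arrays only, since probe sets are not independent replicates. The part of these markers in the differences given below was not tested.

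**Figure D1:**
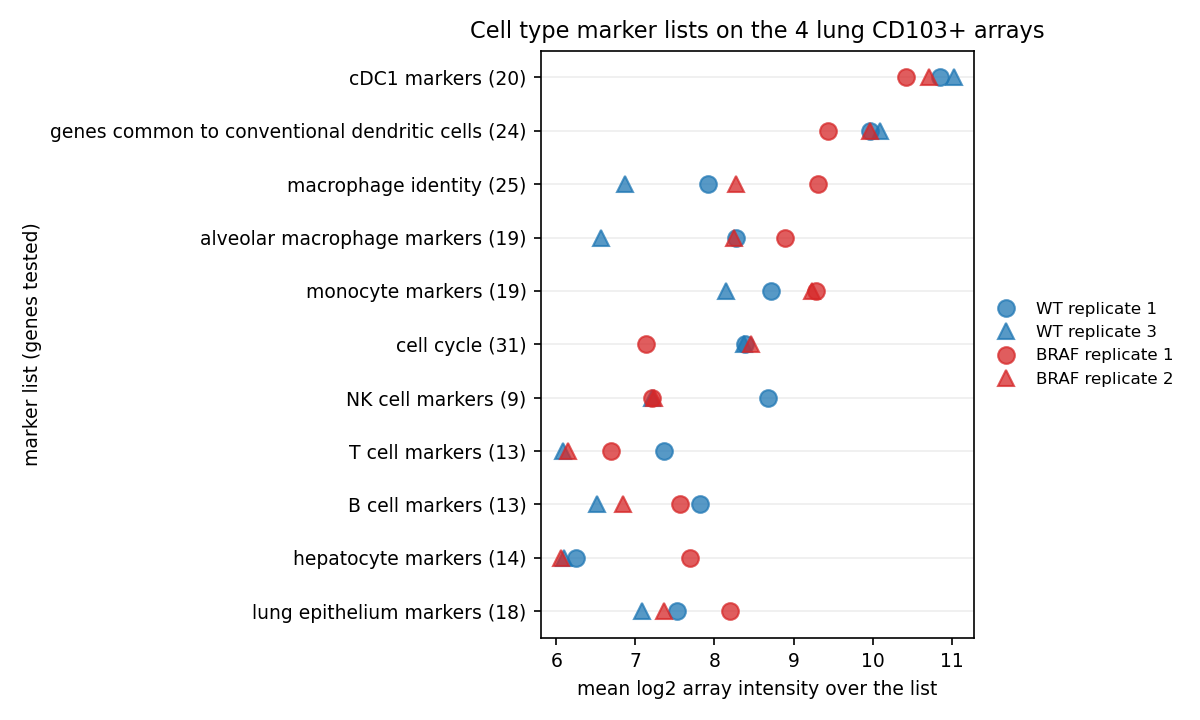
Mean log2 array intensity over each marker list (x axis) on the 4 lung CD103+ arrays, with WT in blue and BRAF in red, circles for replicate 1 and triangles for the other replicate. The cDC1 markers lie between 10.42 and 11.03 on all arrays, WT replicate 1 stands apart in NK cell markers at 8.68, and BRAF replicate 1 stands apart in hepatocyte markers at 7.69 and in cell cycle genes at 7.13.

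Sex-linked transcripts also divided the arrays. Xist, expressed from the inactive X chromosome, read 12.22 and 5.40 in BRAF and 12.06 and 11.71 in WT. The Y-linked gene Eif2s3y read 3.65 and 8.72 in BRAF and 4.07 and 7.31 in WT. BRAF replicate 1 and WT replicate 1 thus carried Xist without Y transcripts, BRAF replicate 2 carried Y transcripts without Xist, and WT replicate 3 carried both. The genotypes were therefore not balanced for these transcripts. BRAF replicate 1 and WT replicate 1 are the pair alike in them, and their difference, called the number 1 pair below, is given for each called gene.

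Of 15365 genes tested, 13 were called between BRAF and WT (limma, Benjamini-Hochberg adjusted p under 0.05), which is 0.0846% of the genes. The 7 that rose (0.0456%) were Mmp12, Fcgr4, Ccl9, Colec12, Hpgd, Il1rn and Emp1, and the 6 that fell (0.039%) were Gnao1, Cd207, Ct55, Ccr7, Pir and Vipr1. They include secreted products, uptake receptors and a prostaglandin enzyme on the higher side, and a migration receptor and langerin on the lower side. At an unadjusted p under 0.05 there were 367 genes higher (2.39%) and 288 lower (1.87%). These calls rest on a spread estimated over all 18 arrays: a fit of the 4 lung CD103 arrays alone, or of the 8 lung arrays, called 0 genes, with 600 and 803 genes at an unadjusted p under 0.05. The 2 arrays of each genotype did not overlap for 1407 genes that were higher in BRAF (9.16%) and 2959 that were lower (19.3%). The median difference over all genes tested was −0.08, and 35.0% were positive.

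**Figure D2:**
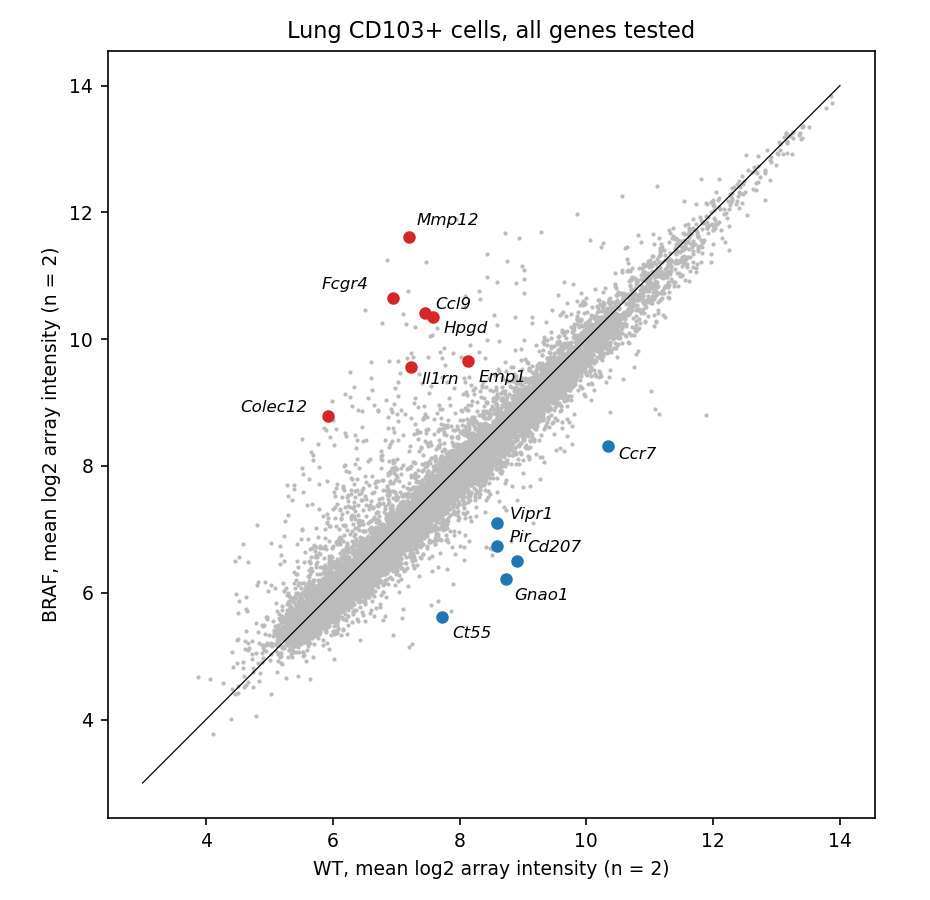
Mean log2 array intensity in WT (x axis) and BRAF (y axis) lung CD103+ cells, 2 arrays each, for all 15365 genes tested in grey. Genes called higher in BRAF are red and those called lower are blue, and the line marks equal values. Mmp12 lies farthest above the line among the called genes, at 7.20 in WT and 11.61 in BRAF, and many uncalled genes of low WT level also lie above the line.

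Of the 7 genes that rose, 3 encode secreted proteins. Mmp12, the macrophage metalloelastase that cleaves elastin, read 12.07 and 11.15 on the BRAF arrays and 8.11 and 6.28 on the WT arrays. It was 21.3-fold higher, a log2 difference of 4.41 ± 0.58 (adjusted p = 0.00703), and the arrays did not overlap. Ccl9, a CC chemokine that binds Ccr1, read 11.04 and 9.78 against 7.73 and 7.18. All 4 values were well separated and the difference was 2.95 ± 0.35 (adjusted p = 0.00484). Il1rn, the secreted antagonist of the interleukin-1 receptor, read 10.13 and 8.99 against 7.69 and 6.77, a difference of 2.33 ± 0.40 (adjusted p = 0.0436). In the number 1 pair of arrays the differences of Mmp12, Ccl9 and Il1rn were 3.95, 3.31 and 2.44.

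The uptake receptors Fcgr4 and Colec12 rose as well. Fcgr4, an activating receptor for immunoglobulin G, read 10.89 and 10.42 on the BRAF arrays and 8.27 and 5.62 on the WT arrays. The WT arrays were far apart from each other, yet both lay below both BRAF arrays, and the difference was 3.71 ± 0.64 (adjusted p = 0.0436). Colec12, a scavenger receptor with a collagen stalk and a lectin domain, read 9.66 and 7.92 against 6.07 and 5.78, a difference of 2.87 ± 0.39 (adjusted p = 0.00732). Both WT arrays were near the filter floor, and BRAF replicate 1 was the higher of the BRAF pair. The difference of Colec12 was 3.59 in the number 1 pair and 2.15 between BRAF replicate 2 and WT replicate 3.

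Hpgd and Emp1 completed the higher side. Hpgd, the dehydrogenase that inactivates prostaglandins, read 10.54 and 10.17 in BRAF and 8.08 and 7.07 in WT. The difference was 2.78 ± 0.34 (adjusted p = 0.00484), and it was 2.46 in the number 1 pair. Emp1, a tetraspan membrane protein listed here among ERK targets, read 9.39 and 9.92 against 8.37 and 7.90, a difference of 1.52 ± 0.24 (adjusted p = 0.0228). It was the smallest of the differences called on this side, and the only one in which BRAF replicate 2 was the higher BRAF array.

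Ccr7, the migration receptor, and Cd207 were among the 6 genes that fell. Ccr7 read 7.86 and 8.75 on the BRAF arrays and 10.01 and 10.68 on the WT arrays. It fell 4.1-fold, by 2.03 ± 0.34 on the log2 scale (adjusted p = 0.0421), and no BRAF array reached a WT array. Its call was lost after quantile normalization, after centring on array medians and with array weights. Cd207 encodes langerin, the endocytic lectin that marks Langerhans cells and is also found on CD103+ dendritic cells of the lung. It read 6.64 and 6.37 against 8.67 and 9.14, a difference of −2.40 ± 0.36 (adjusted p = 0.0191). Cd207 was the 1 cDC1 marker called.

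Gnao1 had the largest difference and Ct55 the smallest p among the genes that fell. Gnao1, a G protein alpha subunit, read 5.73 and 6.69 in BRAF and 9.46 and 7.99 in WT, a difference of −2.51 ± 0.38 (adjusted p = 0.0191). Ct55, a cancer/testis antigen gene, read 5.27 and 5.95 against 7.77 and 7.67, a difference of −2.11 ± 0.26 (adjusted p = 0.00484). On BRAF replicate 1 both Gnao1 and Ct55 lay below that array's filter floor of 5.85. Pir, which encodes the iron-binding protein pirin, read 6.57 and 6.91 against 8.65 and 8.52, a difference of −1.85 ± 0.29 (adjusted p = 0.0228). Vipr1, a receptor for vasoactive intestinal peptide, read 6.91 and 7.29 against 8.95 and 8.23, a difference of −1.49 ± 0.25 (adjusted p = 0.0436). Vipr1 is the 1 called gene with 2 probe sets, and its call was lost when they were averaged.

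Single arrays weighed on these calls. Without BRAF replicate 1 the count was 3 genes and without WT replicate 3 it was 14, of which 2 and 5 were among the 13. Without WT replicate 1 it was 96 and without BRAF replicate 2 it was 90, with 12 of the 13 in each. Leaving out a lung CD11b array, which enters the shared spread, gave 7 without either WT array and 23 without either BRAF array. Ccl9 was the 1 gene called without each lung CD103 array in turn, with an adjusted p of at most 0.0407 and a difference of 2.32 to 3.58. Colec12 lost its call without WT replicate 3 (adjusted p = 0.0605), and Ct55, Gnao1 and Hpgd lost theirs without BRAF replicate 1, with an adjusted p of 0.0744, 0.406 and 0.0744. Ccr7, Cd207, Fcgr4, Il1rn, Mmp12 and Pir lost it without WT replicate 3 and also without BRAF replicate 1. Vipr1 lost it without WT replicate 1 or BRAF replicate 1, and Emp1 without any array but WT replicate 1. Over these omissions Ccr7 ranged from −2.48 to −1.59, Mmp12 from 3.50 to 5.33 and Fcgr4 from 2.38 to 5.03. The arrays of the genotypes did not overlap for any of the 13, so no omission could change a sign. In the number 1 pair alone, Emp1 differed by 1.03, Fcgr4 by 2.61, Cd207 by −2.03, Ccr7 by −2.14, Gnao1 by −3.73, Ct55 by −2.49 and Pir by −2.08. Vipr1 differed by −2.04 in that pair and by −0.94 in the other.

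Scaling and weighting ended some of the calls too. Quantile normalization called 19 genes, 9 of them among the 13, and lost Ccr7, Emp1, Il1rn and Pir. Centring on array medians called 12, with 10 of the 13, and lost Ccr7, Fcgr4 and Il1rn. Array weights called 10, with 9 of the 13, and lost Ccr7, Fcgr4, Il1rn and Pir. Leaving out either WT lung CD11b array lost Ccr7, Emp1, Fcgr4, Il1rn, Pir and Vipr1. Over 21 alternatives in all, Ccl9 was called in 19, Ccr7 and Fcgr4 in 11 each and Il1rn in 9.

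**Figure D3:**
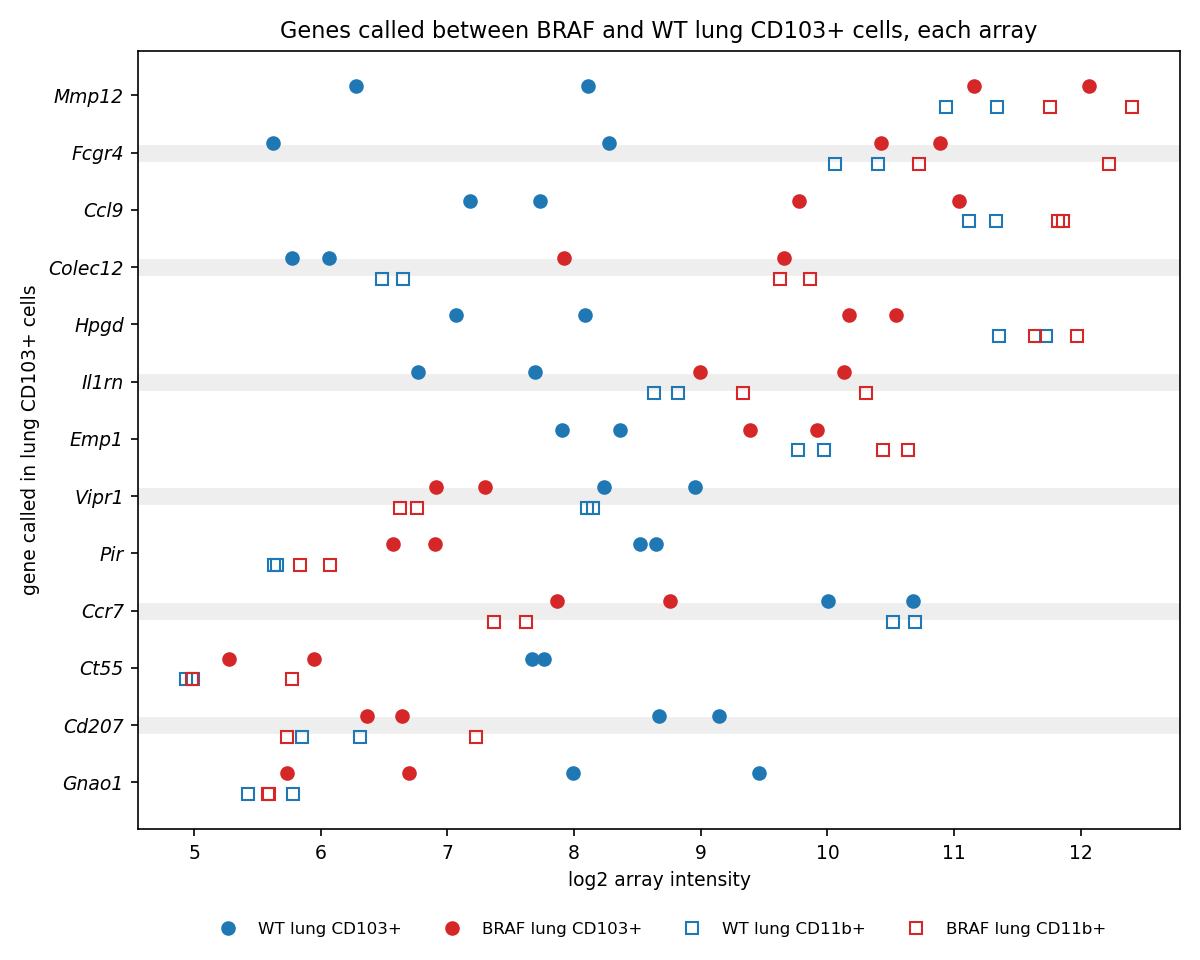
Log2 array intensity (x axis) of the 13 called genes on each of the 8 lung arrays. Filled circles are CD103+ cells and open squares CD11b+ cells, with WT in blue and BRAF in red. In CD103+ cells the blue and red circles are separate in each row, and for Hpgd, Ccl9, Cd207 and Ct55 the red circles lie on the side where both genotypes of CD11b+ cells lie.

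Promoter sequence was available for 11 of the 13 genes, in 15 windows from 250 bases before to 50 after an annotated start (RefSeq, GRCm38.p6). AP-1 is the FOS and JUN factor whose members are induced by ERK. Its motif, searched as TGANTCA on either strand with any base at N, was found in 6 of the 15 windows, against 7.81% of the 32851 promoter windows in the table. N is A or T in the Ccl9 match and in the Emp1 match at 25 bases, and G or C in the others. Emp1, Il1rn and Mmp12 have more than 1 window, so the windows are not 1 a gene. The motif GAGGAAGT of PU.1, a myeloid factor, was found in 2 windows (3.2% of all), 1 of Fcgr4 and 1 of Mmp12. The 2 motifs do not overlap in any of these windows. A match describes the letters in these windows and is not evidence of binding. The windows below are shown because they hold AP-1 matches, in capitals, in genes of either direction. Emp1 holds 2, at 145 and 25 bases before the start, Il1rn holds 1 at 141, Ccl9 at 53, Mmp12 at 44, Cd207 at 7 and Pir at 212.
Emp1, chr6:135362681-135362980, plus strand: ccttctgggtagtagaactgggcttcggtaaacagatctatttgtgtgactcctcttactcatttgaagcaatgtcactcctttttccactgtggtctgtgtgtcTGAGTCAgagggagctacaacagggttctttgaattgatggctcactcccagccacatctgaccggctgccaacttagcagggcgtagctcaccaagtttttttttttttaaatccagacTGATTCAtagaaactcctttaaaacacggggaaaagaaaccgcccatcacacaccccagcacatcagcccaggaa
Il1rn, chr2:24336610-24336909, plus strand: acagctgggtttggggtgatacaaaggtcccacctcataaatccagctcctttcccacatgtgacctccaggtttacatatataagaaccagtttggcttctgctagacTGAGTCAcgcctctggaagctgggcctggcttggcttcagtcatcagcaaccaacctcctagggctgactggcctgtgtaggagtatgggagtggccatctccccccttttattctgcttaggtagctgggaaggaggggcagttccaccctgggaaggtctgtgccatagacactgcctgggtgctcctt
Ccl9, chr11:83578587-83578886, minus strand: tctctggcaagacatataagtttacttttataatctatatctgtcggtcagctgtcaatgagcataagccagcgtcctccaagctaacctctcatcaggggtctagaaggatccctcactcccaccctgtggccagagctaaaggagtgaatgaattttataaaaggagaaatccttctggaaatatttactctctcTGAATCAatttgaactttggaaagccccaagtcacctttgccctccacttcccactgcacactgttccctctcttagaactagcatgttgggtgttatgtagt
Mmp12, chr9:7347124-7347423, plus strand: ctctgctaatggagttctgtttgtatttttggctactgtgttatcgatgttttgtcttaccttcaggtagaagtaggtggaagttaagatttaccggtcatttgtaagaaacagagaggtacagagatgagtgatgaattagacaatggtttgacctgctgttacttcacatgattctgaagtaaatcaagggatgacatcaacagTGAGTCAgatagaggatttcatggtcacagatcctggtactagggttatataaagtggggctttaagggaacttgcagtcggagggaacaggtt
Cd207, chr6:83677808-83678107, minus strand: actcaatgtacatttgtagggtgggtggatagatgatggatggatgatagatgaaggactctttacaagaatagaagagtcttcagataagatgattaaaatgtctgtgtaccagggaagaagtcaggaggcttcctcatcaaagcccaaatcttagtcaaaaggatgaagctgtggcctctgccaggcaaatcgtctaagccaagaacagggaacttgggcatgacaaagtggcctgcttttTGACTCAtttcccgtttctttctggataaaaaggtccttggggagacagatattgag
Pir, chrX:164269181-164269480, plus strand: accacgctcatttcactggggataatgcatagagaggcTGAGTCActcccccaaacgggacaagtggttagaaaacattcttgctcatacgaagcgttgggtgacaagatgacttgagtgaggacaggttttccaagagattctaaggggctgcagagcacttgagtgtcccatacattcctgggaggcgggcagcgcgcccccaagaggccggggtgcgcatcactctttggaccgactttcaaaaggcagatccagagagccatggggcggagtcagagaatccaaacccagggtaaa
Fcgr4 is shown for its PU.1 match, ACTTCCTC in this orientation starting 24 bases before the start site, and it holds no AP-1 match.
Fcgr4, chr1:171018676-171018975, plus strand: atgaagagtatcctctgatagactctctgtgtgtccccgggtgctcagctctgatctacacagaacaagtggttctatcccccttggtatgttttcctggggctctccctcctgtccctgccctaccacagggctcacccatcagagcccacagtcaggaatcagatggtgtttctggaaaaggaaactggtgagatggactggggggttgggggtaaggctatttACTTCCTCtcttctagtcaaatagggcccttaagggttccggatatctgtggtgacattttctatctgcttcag

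The called genes were then set beside their levels in CD11b+ cells of the same organ. These comparisons share the WT CD103 arrays with the genotype comparison, so the values are given side by side and no agreement is counted. Between the WT sorts, 576 genes (3.75%) were called, 212 higher in CD103 cells (1.38%) and 364 lower (2.37%). Mmp12 read 10.94 and 11.34 on the WT lung CD11b arrays, a level near the 12.07 and 11.15 of BRAF CD103 cells, and WT CD103 minus WT CD11b was −3.94 ± 0.58 (adjusted p = 0.00101). Ccl9 read 11.12 and 11.33 there and Hpgd 11.36 and 11.73, each above all CD103 arrays of either genotype. Cd207 read 5.85 and 6.31 in WT CD11b cells and Ct55 4.93 and 5.00, below or at the level of the BRAF CD103 arrays. Ccr7, Colec12 and Vipr1 did not have this arrangement: WT CD11b and WT CD103 cells differed by −0.26 ± 0.34, −0.64 ± 0.39 and 0.47 ± 0.25, and none of the 3 was called between the sorts. Il1rn was not called between the sorts either, at −1.49 ± 0.40 (limma, adjusted p = 0.0547).

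Among the ERK targets and feedback genes, 33 were tested, 1 was called (Emp1) and the median difference was 0.24, against −0.08 over all genes. Of the 33, 11 were higher on both BRAF arrays than on both WT arrays (9.16% of all genes were) and 3 were lower (19.3%). The median was 0.15 to 0.18 when any 1 of the 4 arrays was left out. Egr2, an immediate ERK-induced factor, read 10.08 and 10.70 against 8.96 and 8.11, a difference of 1.85 ± 0.58 that was not called (adjusted p = 0.442). Ier3, an early response gene, read 8.50 and 8.32 against 7.41 and 6.63 (adjusted p = 0.149), and the growth factor Ereg 9.18 and 6.23 against 5.56 and 5.21 (adjusted p = 0.35). Dusp6, the phosphatase that inactivates ERK, read 9.50 and 9.58 against 8.23 and 8.99, and its difference of 0.92 ± 0.46 was not called either. The 25 genes of the RAS, RAF, MEK and ERK cascade had a median of −0.065, between −0.21 and 0.032 with 1 array left out, and 0 called. The anti-apoptotic gene Bcl2l1 (BCL-XL) read 7.43 and 7.76 against 7.81 and 8.02, a difference of −0.32 ± 0.27 that was not called. The other 15 BCL2 family genes tested held no call either.

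Genes of mature and migratory dendritic cells lay on the lower side. Of 32 tested, 27 were negative, 12 were below both WT arrays on both BRAF arrays (19.3% of all genes were), and 1 was called, Ccr7. Fscn1, the actin bundler of dendritic cell protrusions, read 6.29 and 7.35 against 8.38 and 9.25, a difference of −1.99 ± 0.36 that missed the threshold (adjusted p = 0.0573). Ccl5, a T cell attracting chemokine, read 8.69 and 9.11 against 11.74 and 10.42, a difference of −2.18 ± 0.39 (adjusted p = 0.0573). No BRAF array reached a WT array for either gene. Il12b, the shared chain of interleukin-12 and interleukin-23, read 7.07 and 8.27 against 8.87 and 9.12 (adjusted p = 0.253). The median of the list was −0.41, and it was −0.28 to −0.46 without each lung CD103 array in turn.

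Chemokine ligands and receptors went both ways. Of 30 ligands, 21 were positive, Ccl9 was called, 11 were higher on both BRAF arrays (9.16% of all genes were) and 3 lower (19.3%). The median was 0.52, or 0.19 with BRAF replicate 1 left out and 0.32 with WT replicate 3 left out. Cxcl9, an interferon-induced attractant of T cells, read 11.65 and 11.54 against 9.68 and 8.18, a difference of 2.66 ± 0.63 that was not called (adjusted p = 0.193). Ccl3 read 12.69 and 11.25 against 10.87 and 8.83, with a difference of 2.12 ± 0.57 (adjusted p = 0.285). Among 17 receptors only Ccr7 was called. Ccr1, which binds Ccl9 and Ccl3, read 8.67 and 8.25 against 6.75 and 5.16, a difference of 2.51 ± 0.56 (adjusted p = 0.145), so receptor and ligands were both higher on the BRAF arrays without the receptor being called. Ccr2 read 10.33 and 11.34 against 11.02 and 11.87, and its arrays overlapped.

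Macrophage identity genes were higher in BRAF in nearly every member and called in none. Of 25, 24 were positive and 18 were higher on both BRAF arrays than on both WT arrays (9.16% of all genes were), with a median of 1.31. Adgre1, which encodes F4/80, read 10.32 and 9.42 against 8.58 and 6.92, a difference of 2.12 ± 0.41 (adjusted p = 0.0783). The mannose receptor gene Mrc1 read 11.15 and 9.37 against 8.39 and 5.16, a difference of 3.48 ± 0.75 (adjusted p = 0.128). These genes also separated the replicates of a genotype, as both examples show. Leaving out BRAF replicate 1 gave a list median of 0.83, and leaving out WT replicate 3 gave 0.89. The list's members above the floor numbered 25 and 24 on the BRAF arrays and 24 and 19 on the WT arrays. Of all 15365 genes tested, 13697 and 13957 were above it on the BRAF arrays and 13946 and 13996 on the WT arrays. The floor is passed by most genes, so these counts do not tell whether WT cells carried macrophage transcripts. On the 4 lung CD11b arrays the list mean was 9.26 to 9.95, above the CD103 arrays except BRAF replicate 1 at 9.31.

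Alveolar macrophage and monocyte markers showed a like pattern. Of 19 alveolar markers 15 were positive, 0 were called and the median was 0.88, and omitting WT replicate 3 or BRAF replicate 1 lowered it to 0.33 or 0.56, while omitting WT replicate 1 raised it to 1.41. Chil3, a chitinase-like protein, read 12.26 and 10.24 against 9.57 and 4.13. The protease Ctsk read 11.38 and 9.55 against 7.66 and 5.35, a difference of 3.96 ± 0.93 (adjusted p = 0.191), whereas Siglecf, a surface lectin of alveolar macrophages, read 7.69 and 7.91 against 8.43 and 8.17. Of 19 monocyte markers 15 were positive with a median of 0.67, or 0.40 without WT replicate 1. Fn1, which encodes fibronectin, read 12.15 and 11.66 against 9.43 and 6.47, a difference of 3.95 ± 0.72 that missed the threshold (adjusted p = 0.0573). Ifitm3 read 12.11 and 12.41 against 11.31 and 9.81 (adjusted p = 0.0821).

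**Figure D4:**
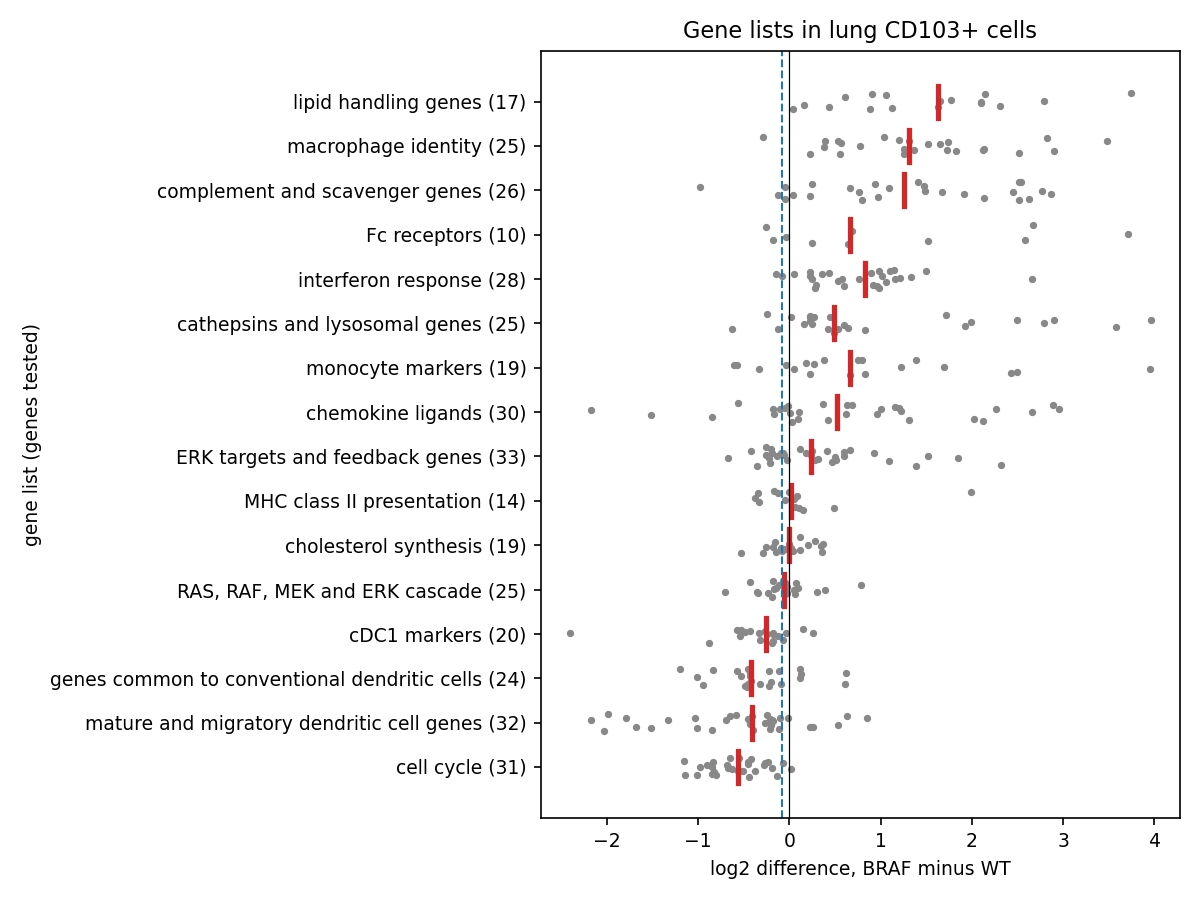
Log2 difference, BRAF minus WT, in lung CD103+ cells (x axis) for the tested members of 16 gene lists, 1 grey point a gene. Red bars are list medians, the dashed line is the median of all genes tested at −0.08 and the black line is 0. Lipid handling genes (median 1.63) and macrophage identity genes (1.31) lie farthest to the right and cell cycle genes (−0.56) farthest to the left.

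Complement, scavenger and Fc receptor genes held 2 of the 7 genes that rose, Colec12 and Fcgr4. Of 26 complement and scavenger genes 22 were positive, 15 were higher on both BRAF arrays (9.16% of all genes were) and the median was 1.25, or 0.69 if BRAF replicate 1 was omitted and 1.94 if BRAF replicate 2 was. Msr1, scavenger receptor A, read 10.42 and 8.91 against 7.59 and 6.19, a difference of 2.77 ± 0.52 (adjusted p = 0.0612). C1qb, a chain of the complement component C1q, read 12.06 and 9.89 against 9.64 and 7.23 (adjusted p = 0.332). Of 10 Fc receptor genes 6 were higher on both BRAF arrays, against the same 9.16%, and the median was 0.66, or 0.32 without WT replicate 3 and 1.01 without WT replicate 1. Fcgr3 read 11.38 and 9.97 against 9.24 and 6.94, a difference of 2.58 ± 0.62 (adjusted p = 0.193), and Fcgr1, a gene that separates macrophages from dendritic cells, had a difference of 1.52 ± 0.37 (adjusted p = 0.207).

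C-type lectins and Toll-like receptors were mixed. Of 29 lectin genes 16 were positive and 13 negative, and the 1 call was Cd207. Clec7a, the beta-glucan receptor dectin-1, read 10.78 and 10.50 against 9.05 and 7.59, a difference of 2.32 ± 0.43 (adjusted p = 0.0575). Cd209a, a DC-SIGN family lectin of type 2 dendritic cells, read 8.09 and 9.56 against 10.99 and 11.30, a difference of −2.32 ± 0.49 (adjusted p = 0.117). Toll-like receptor genes had a median of 0.28 over 15, or 0.068 without WT replicate 3 and 0.56 without BRAF replicate 2. Tlr7, an RNA sensor that cDC1 cells largely lack, read 9.79 and 8.39 against 8.04 and 4.49, whereas Tlr3, the RNA sensor of cDC1 cells, read 10.94 and 11.11 against 11.33 and 11.25.

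Of the 3 lists of conventional dendritic cell genes, 2 had medians below that of all genes. Of 20 cDC1 markers 18 were negative and 6 were lower on both BRAF arrays (19.3% of all genes were). Their median was −0.25, or −0.12 with BRAF replicate 1 omitted and −0.11 with WT replicate 3 omitted, and apart from Cd207 none was called. Xcr1 read 12.23 and 12.43 in BRAF and 12.58 and 12.43 in WT, and Clec9a 12.02 and 12.34 against 12.28 and 12.47. Of the 24 genes shared by all conventional dendritic cells 19 were negative and 9 were lower on both BRAF arrays, against the same 19.3%. The median was −0.43, close to the −0.41 of the mature dendritic cell list, and omitting BRAF replicate 1, WT replicate 3 or BRAF replicate 2 gave −0.041, −0.21 or −0.68. Of 19 cDC2 markers 10 were positive with a median of 0.05, which ran from −0.071 without WT replicate 3 to 0.55 without WT replicate 1. Their members did not move together: Itgam, which encodes CD11b, read 8.39 and 8.21 against 6.87 and 6.90, a difference of 1.41 ± 0.42 (adjusted p = 0.377), while Cd209a read lower.

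Antigen presentation genes held no call. The 14 MHC class II genes had a median of 0.02, between −0.13 and 0.072 with 1 array left out, and 0 called. Cd74, the invariant chain, read 13.32 and 13.36 against 13.46 and 13.57, and H2-Ab1, a class II chain, 13.21 and 13.30 against 13.34 and 13.41. The largest difference on the list was that of Lgmn, an endosomal protease, at 1.99 ± 0.47 (adjusted p = 0.193). The 17 genes of MHC class I and cross-presentation had a median of −0.13 and 0 called. That median turned on single arrays, at 0.20 when BRAF replicate 1 was omitted and −0.42 when BRAF replicate 2 was. Cybb, the phagosomal oxidase subunit, read 12.02 and 11.35 against 10.25 and 7.20, a difference of 2.96 ± 0.63 (adjusted p = 0.117). The 20 costimulatory and checkpoint genes had a median of 0.11, between −0.036 and 0.076 with 1 array left out, and Icosl, the ligand of ICOS, read 9.03 and 9.80 against 9.96 and 10.49.

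Lysosomal and lipid handling genes were higher in BRAF without a call. Of 25 cathepsin and lysosomal genes 22 were positive and 15 were higher on both BRAF arrays (9.16% of all genes were), with a median of 0.49. Ctsd, the aspartic protease of lysosomes, read 11.82 and 10.86 against 9.50 and 7.38, a difference of 2.90 ± 0.59 (adjusted p = 0.0987). All 17 lipid handling genes tested were positive, 11 of them higher on both BRAF arrays, against the same 9.16%, and the median was 1.63, or 0.84 with BRAF replicate 1 omitted and 0.89 with WT replicate 3 omitted. Fabp7, a fatty acid binding protein, read 12.14 and 10.29 against 9.01 and 5.93, a difference of 3.75 ± 0.83 (adjusted p = 0.145). Apoe read 12.37 and 9.42 against 8.81 and 8.36. The 19 cholesterol synthesis genes had a median of −0.01, between −0.16 and 0.18 with 1 array left out, and 0 called.

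Interferon response genes were higher on the BRAF arrays in 26 of 28 cases, and 17 were higher on both BRAF arrays than on both WT arrays (9.16% of all genes were). The median was 0.83 and 0 were called. Leaving out BRAF replicate 2 gave a median of 0.45, and leaving out BRAF replicate 1 gave 1.04. Ifit1, an interferon-induced RNA binding protein, read 6.95 and 7.07 against 5.56 and 5.47 (adjusted p = 0.142), and its arrays did not overlap. Ifit3 read 7.02 and 7.78 against 6.34 and 5.80 (adjusted p = 0.312). Unlike the macrophage list, the mean of this list was highest on BRAF replicate 2, at 8.31, and was 7.69 on BRAF replicate 1 and 7.39 and 7.10 on the WT arrays.

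Cytokine and lipid mediator genes held the calls of Il1rn and Hpgd. Of 20 genes of the interleukin-1 family and inflammasome 16 were positive, with a median of 0.17, or 0.017 without WT replicate 3 and 0.40 without WT replicate 1. Il1a read 12.01 and 10.30 against 9.98 and 7.99. Tnf, in the list of other cytokines, read 10.46 and 9.14 against 9.12 and 7.50, a difference of 1.49 ± 0.45 (adjusted p = 0.401). Among 25 prostaglandin and leukotriene genes the median was −0.03, between −0.071 and 0.14 with 1 array left out. Alox5, the enzyme that starts leukotriene synthesis, read 9.10 and 8.79 against 8.32 and 6.55 (adjusted p = 0.442). Matrix proteases were divided, with 15 of 28 positive and Mmp12 the 1 call. The collagenase Mmp8 read 8.47 and 8.70 against 7.48 and 4.61, and Adam23 7.70 and 8.78 against 9.55 and 9.74 (adjusted p = 0.193).

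Cell cycle genes depended on 1 array. Of 31 tested, 30 were negative with a median of −0.56 and 0 were called. Their mean was 7.13 on BRAF replicate 1 and 8.46 on BRAF replicate 2, against 8.39 and 8.37 in WT. Top2a, a topoisomerase of dividing cells, read 7.04 and 9.25 against 9.11 and 9.49. Without BRAF replicate 1 the list median was 0.06, and without BRAF replicate 2 it was −1.33. The 9 NK cell markers were all negative with a median of −0.50, and it was −0.01 without WT replicate 1. The 14 hepatocyte markers were positive in 13 cases with a median of 0.59, and it was −0.06 when BRAF replicate 1 was omitted and 1.29 when BRAF replicate 2 was.

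The genotype effect in lung CD103 cells was compared with that in the other populations by an interaction test for each gene. Against lung CD11b cells 0 genes were called (limma, 372 at an unadjusted p under 0.05), so no effect particular to CD103 cells was established. With CD103 and CD11b arrays of 1 number as a random replicate block, 2 genes were called, Ct55 and Cd209f, the second named after its value was seen. Ct55 came closest in the main fit, with −2.11 in CD103 cells and 0.41 in CD11b cells, an interaction of −2.52 ± 0.37 (adjusted p = 0.0555). On WT lung CD11b replicates 1 and 3 Ct55 read 4.93 and 5.00, below their filter floors of 5.65 and 5.60. A fall could hardly be measured there. Cd207 had −2.40 and 0.40 (interaction adjusted p = 0.29), and Ccl9 had 2.95 and 0.62 (adjusted p = 0.49). Colec12, Ccr7 and Vipr1 were called in lung CD11b cells too, with 3.18 ± 0.39, −3.11 ± 0.34 and −1.43 ± 0.25 there. Their interactions were −0.31 ± 0.55, 1.08 ± 0.48 and −0.06 ± 0.36, none called.

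Against liver CD11b cells 0 interactions were called, with 1435 at an unadjusted p under 0.05, and against BMDC 8 were called (0.0521%), 1 higher in CD103 cells (0.00651%) and 7 lower (0.0456%). The BMDC donors were 5 weeks old and the lung donors 14 weeks, so cell population and donor age cannot be told apart in these interactions. Emp1 rose in BMDC by 2.02 ± 0.19 (adjusted p = 0.00011) and in liver CD11b cells by 1.76 ± 0.24 (adjusted p = 0.0129), and in lung CD11b cells its difference was 0.67 ± 0.24 (adjusted p = 0.44). Ccr7 fell in BMDC by 1.93 ± 0.28 (adjusted p = 0.00464), and its difference in liver was −1.22 ± 0.34 (adjusted p = 0.171). Ccl9 differed by −0.09 ± 0.29 in BMDC, where it read a mean of 12.01 in WT, and its interaction with BMDC was called, at 3.04 ± 0.45 (adjusted p = 0.0166). Ct55 differed by 0.12 ± 0.22 in BMDC, with a called interaction of −2.23 ± 0.34 (adjusted p = 0.019). Its mean in WT BMDC was 5.16, below the filter floors of 5.62 to 5.67 on those arrays, so a fall could hardly be measured there.

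**Figure D5:**
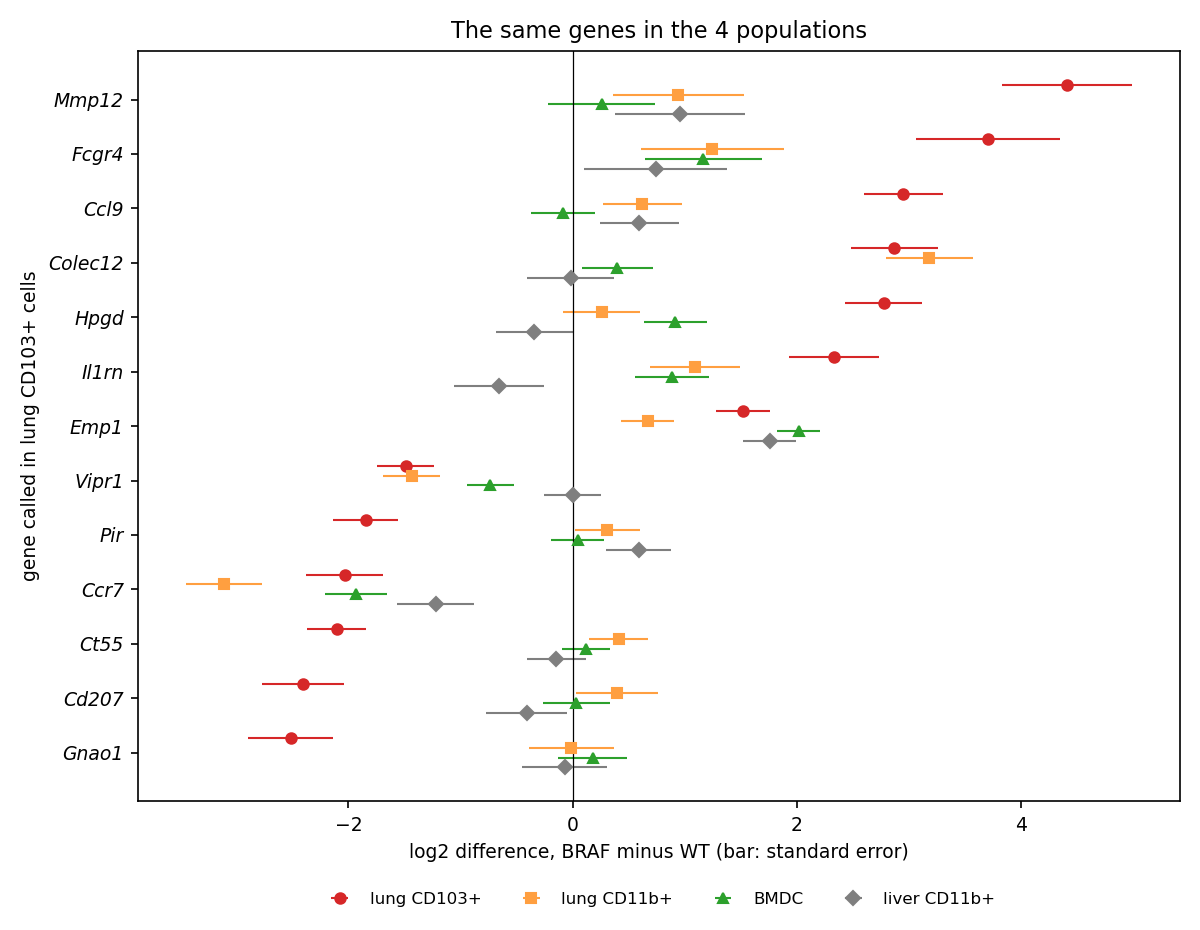
Log2 difference, BRAF minus WT, with its standard error (x axis) for the 13 genes called in lung CD103+ cells, in each of the 4 populations. Ccr7 lies below 0 and Emp1 above 0 in each population, whereas Cd207, Ct55, Gnao1 and Pir lie between −2.51 and −1.85 in lung CD103+ cells and between −0.41 and 0.59 in the other populations. The difference from lung CD11b+ cells was called for none of these 4 genes. Ct55 had a mean below the filter floor in WT cells of each other population. Gnao1 had means of 5.60 to 5.80 in those cells, near the floors of 5.60 to 6.07. Pir was near the floor in WT lung CD11b+ and liver CD11b+ cells, at 5.64 and 5.87, and Cd207 was below it in WT BMDC, at 5.46. A fall could hardly be measured in these cases.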

How the data were processed

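RNA of 18 samples was hybridised to 1-colour Affymetrix gene arrays. The authors deposited array intensity (linear values, medians of 93.7 to 113.2 per array). Its summarisation and normalization are not given in the sources used here. The total RNA was extracted with Trizol and biotin labelled, per the labels' protocols. Values were log2 transformed without a pseudocount or further scaling.

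Of 24922 probe sets, 21425 had 1 symbol (19752 genes), 1399 several and 2098 none. Of the first, 21347 matched RefSeq by Entrez number and 0 symbols changed. Where a gene had more than 1 (921 genes), the brightest was kept. Testing covered the 15365 genes that exceeded the 30th percentile of at least 2 arrays.

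Group means were fitted to all 18 arrays with limma 3.58.1 in R 4.3.3 (10 residual degrees of freedom, prior 4.83), with Benjamini-Hochberg adjustment over all genes tested and calls under 0.05. Tables and plots used Python 3.11.15, pandas 2.3.3, numpy 2.4.6 and matplotlib 3.10.9. Errors after a difference are standard errors. They use the spread of a gene shared over all 8 groups, and its lung CD103 arrays can vary more or less than that. The fit was tested on simulated data. The number of arrays limits the precision.

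The replicate numbers may pair CD103 and CD11b arrays, but the labels do not say so. Deviations of same-numbered arrays correlated at 0.159 in WT and 0.22 in BRAF. In groups this small the deviations of the arrays mirror each other, so each genotype gives only 1 value. These values cannot show whether the arrays were paired. The genotypes share number 1 alone, so the genotype comparison is not paired. Alternatives were scaling, filter, probe set rule, variance prior, array weights, arrays fitted, replicate block and each lung array left out.

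The members and the 45 gene lists (883 of 1007 entries tested) were chosen with earlier results of these data known. Named genes are Braf, Itgax, Itgae, Itgam, Ccr7, Bcl2l1, the called genes, up to 4 members per list with the smallest p, and up to 6 called genes per interaction. Values given to describe cell type, or for a gene outside this rule (such as Xcr1, Clec9a, Cd74, H2-Ab1, Tlr3, Ccr2, Ccl3, Dusp6, Cyp2f2, Scgb3a1, Alb and Cd209f), were chosen after they were seen.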

Additional observations from a re-analysis of the deposited data

Results flagged for a closer look

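The genotype effect in lung CD103+ cells differed from that in BMDC, by limma's interaction test over all genes, for 8 genes. The donors were 5 weeks old for BMDC and 14 weeks for lung, and age cannot be told apart from population here. Serpinb2, an inhibitor of plasminogen activators, rose in BMDC by 4.09 ± 0.23 and differed by −0.17 ± 0.28 in lung CD103+ cells, an interaction of −4.26 (adjusted p = 6.1e-05). Its lung CD103 arrays read 4.95 to 5.29, below the filter floor. Arg1, which breaks down arginine, rose in BMDC by 4.73 ± 0.21, and its interaction was −3.87. In lung CD103+ cells it read 6.70 and 6.48 in BRAF against 5.85 and 5.61 in WT, which was not called. Serpinb10 had an interaction of −5.14, with a rise of 3.85 ± 0.40 in BMDC and −1.29 ± 0.49 in lung CD103+ cells. Ccl7, a monocyte attractant, had an interaction of −4.35, the cadherin family gene Pcdh7 of −2.24 and the phospholipase gene Plcb4 of −2.56. In these 3 genes BMDC rose by 5.04 ± 0.36, 1.21 ± 0.21 and 3.15 ± 0.24. Ccl9, at 3.04, and Ct55, at −2.23, were the pair in which the lung CD103+ effect was the called one. Ct55 had a mean of 5.16 in WT BMDC, below the filter floors of those arrays.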

How the results depend on the processing

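For BRAF against WT in lung CD103+ cells the 13 calls became 0 with the 4 arrays compared alone or with the 8 lung arrays, 21 with the 2 narrowest arrays (1 BMDC, 1 liver) left out and 6 with the replicate number as a fixed block, and 3 to 96 when lung arrays were left out in turn. A random replicate block gave 12, without Il1rn. Calls for the difference from lung CD11b were 2 with a variance trend, 3 with array weights, 2 with the random replicate block, 1 with number as a fixed block and 0 to 22 without single arrays. Against BMDC they were 66 with array weights, 16 without the narrow arrays and 4 to 49 without single arrays. Against liver CD11b they were 8 after quantile normalization, 6 without the narrow arrays and 0 to 35 without single arrays. Between the WT sorts they were 1280 with array weights, 916 without the narrow arrays and 251 to 610 without single arrays. The cause was not tested. Gene by gene, direction in lung CD103+ cells was followed only for the called genes and for Braf, Itgax, Itgae, Itgam and Bcl2l1. It turned for 3 of the uncalled genes among these when single arrays were left out. Braf ranged from −0.482 to 0.242 (positive without WT CD103 replicate 1) and Itgae from −1.20 to 0.043 (positive without BRAF CD103 replicate 1). Itgax ranged from −0.062 (without WT CD103 replicate 1) to 0.325, with −0.011 without BRAF CD103 replicate 2. Quantile normalization moved the median difference from −0.08 to −0.06.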

Other observations

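A further 18 genes had an adjusted p from 0.05 to 0.1, 13 higher and 5 lower, and those named here were chosen after their values were seen. Cav1, the caveolar coat protein, differed by 3.04 ± 0.60 (limma, adjusted p = 0.0783). The inhibitory lectin Siglece read 8.87 and 8.92 against 7.39 and 6.04, a difference of 2.18 ± 0.41 (adjusted p = 0.0613), and the stem cell antigen Cd34 8.75 and 8.88 against 7.46 and 6.82. On the lower side, Mreg (melanoregulin) differed by −1.25 ± 0.24 (adjusted p = 0.071), and Cfap20dc read 5.58 and 6.04 against 7.70 and 7.41, a difference of −1.74 ± 0.32 (adjusted p = 0.0573). The BRAF and WT arrays did not overlap for any of these 5 genes. Over all genes tested, 9.16% were higher and 19.3% lower without overlap. Genes picked for a small p tend to have separate arrays, so this adds no support.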
